A study of Mus musculus with 23 samples.

Results

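The expression of 10 core circadian clock genes (Arntl, Clock, Per1, Per2, Per3, Cry1, Cry2, Nr1d1, Nr1d2 and Dbp) was described in 3 brain regions of mice on 2 diets. The genes were chosen by symbol, as the rows of the log2 expression table whose transcript identifier carries one of these symbols in the array annotation. This gave 13 rows of 31395. 7 genes had a single row, and Per1, Cry2 and Nr1d2 had a second one.

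RNA came from female C57BL/6 mice, 5 weeks old at the start, that for 8 weeks had received standard chow (SC mice) or a free choice of the same chow and a chocolate mixture (CM mice). The regions were striatum (ST), frontal cortex (FC) and the tissue called hypothalamus (HT). They came from 4 SC mice (L52, L54, L56, L58) and 4 CM mice (O52, O54, O56, O58), with 4 one-color Agilent arrays per group and 3 for CM FC, where mouse O52 is not analysed here. Both diet groups passed through 11 days of tests before death, during which the SC mice also had chocolate mixture for a short time in the light phase, and the first diet was then given back. The hour of death is not given in the sources used here, so the phase of the daily cycle at which the tissues were taken is unknown. The sample labels call the HT tissue thalamic and the study calls it hypothalamic, and the study's name is kept.

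Clock and Arntl (also called BMAL1) form a transcription factor that binds E-box sequences and switches on the Per and Cry genes, whose proteins then inhibit it. Nr1d1 and Nr1d2 (REV-ERB alpha and beta) are nuclear receptors that repress Arntl through RRE sequences, and Dbp is an activator that binds D-box sequences. Since the loop turns once a day in most tissues, the level of Per2, Nr1d1 or Dbp depends on the hour of sampling, and in rodents the clock of the suprachiasmatic nucleus in the hypothalamus follows light while clocks elsewhere also follow feeding.

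The binding sequences named above were looked for in the 250 bases before the transcription start of each gene, because members under the same factor could share them. RefSeq promoters (GRCm38.p6) matched 9 of the 10 genes, in 13 windows, and no promoter was used for Per2. The letters searched on both strands, with the share of 32851 mouse promoters that hold them, were CACGTG for the E-box (6.02%), CACGTT for the variant E'-box (3.85%), TAGGTCA and TGGGTCA for the RRE core (2.23% and 3.24%), TTATGTAA for the D-box (0.819%) and TGACGTCA for the CRE bound by CREB (1.55%). The 5 genes with a match are shown with the match in capitals and all other bases in lower case. An E'-box on the other strand reads AACGTG.
Per1, chr11:69098753-69098818, plus strand: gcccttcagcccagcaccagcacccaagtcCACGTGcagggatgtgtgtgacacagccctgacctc
Per3, chr4:151044786-151044900, minus strand: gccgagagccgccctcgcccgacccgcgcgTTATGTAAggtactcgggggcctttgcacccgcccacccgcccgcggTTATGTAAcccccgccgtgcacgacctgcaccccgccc
Cry1, chr10:85185079-85185163, minus strand: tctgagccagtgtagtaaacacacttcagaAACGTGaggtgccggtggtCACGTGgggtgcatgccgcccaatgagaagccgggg
Cry2, chr2:92434200-92434265, minus strand: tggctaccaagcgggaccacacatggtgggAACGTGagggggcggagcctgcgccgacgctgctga
Nr1d1, chr11:98775378-98775435, minus strand: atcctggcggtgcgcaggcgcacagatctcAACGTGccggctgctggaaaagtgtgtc
Per1 held an E-box, Cry1 an E-box and an E'-box, Cry2 and Nr1d1 an E'-box, and Per3 a pair of D-boxes. None of the letters searched was found in the windows of Arntl, Clock, Nr1d2 or Dbp.

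The array probes for these genes lie elsewhere, and their positions are given in the array annotation's mm9 build. They are chr7:120457261-120457320 for Arntl, chr5:76641377-76641436 for Clock, chr11:68923364-68923423 for Per1, chr1:93313046-93313105 for Per2, chr4:150379256-150379315 for Per3 and chr10:84594731-84594790 for Cry1. Cry2 was read at chr2:92243807-92243866, Nr1d1 at chr11:98630526-98631028, Nr1d2 at chr14:19037253-19037312, and Dbp as the mean of probes at chr7:52965322-52965381 and chr7:52965461-52965520. The second rows were at chr11:68919895-68919954 for Per1, chr2:92251417-92251476 for Cry2 and chr14:19036568-19036627 for Nr1d2. The part of the transcript each probe reads is not given in the sources used here. The 10 first rows were well above background on all 23 arrays, and the second Per1 row on 10 of them.

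Across all arrays, the scanner software marked between 36432 and 42261 of 59305 spots as well above background. Precision is limited by how many arrays there are, and they lay on 3 slides. Each CM group lay on a single slide (FC on slide 3, ST on slide 1, HT on slide 2), whereas each SC group was spread over slides. Diet and slide overlap in part in ST and HT. In FC they overlap fully, since the SC FC arrays lay on slides 1 and 2 only. Main results are therefore given with and without the slide as a fixed block. Markers fitted the regions in part: on chow, 9 of 9 striatal markers were higher in ST than in FC. In SC ST, however, the log2 of the summed level of hypothalamic markers reached 16.6, against 14.7 to 18.3 in SC HT. In CM ST it was at most 13.5. The same sum for cortical markers reached 13.12 in SC ST, against 12.97 to 13.84 in SC FC and at most 12.12 in CM ST. The part of these SC ST arrays in the clock gene results was not tested. The HT tissue carried markers of both neighboring regions, with 8 of 10 hypothalamic and 8 of 8 thalamic markers higher in HT than in FC, and markers of the suprachiasmatic nucleus were mixed, with 3 of 8 higher and 1 lower. Against ST on chow, 4 of 10 hypothalamic and 8 of 8 thalamic markers were higher in HT. In such bulk tissue, fewer cells of a type and less RNA per cell cannot be told apart.

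Levels are log2 normalized intensities, and differences are log2 differences from a limma model of all arrays, with p adjusted by Benjamini-Hochberg over all 31395 rows and called under 0.05. The model weights arrays, so a fitted difference can depart from the difference of plain means.

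**Figure D1:**
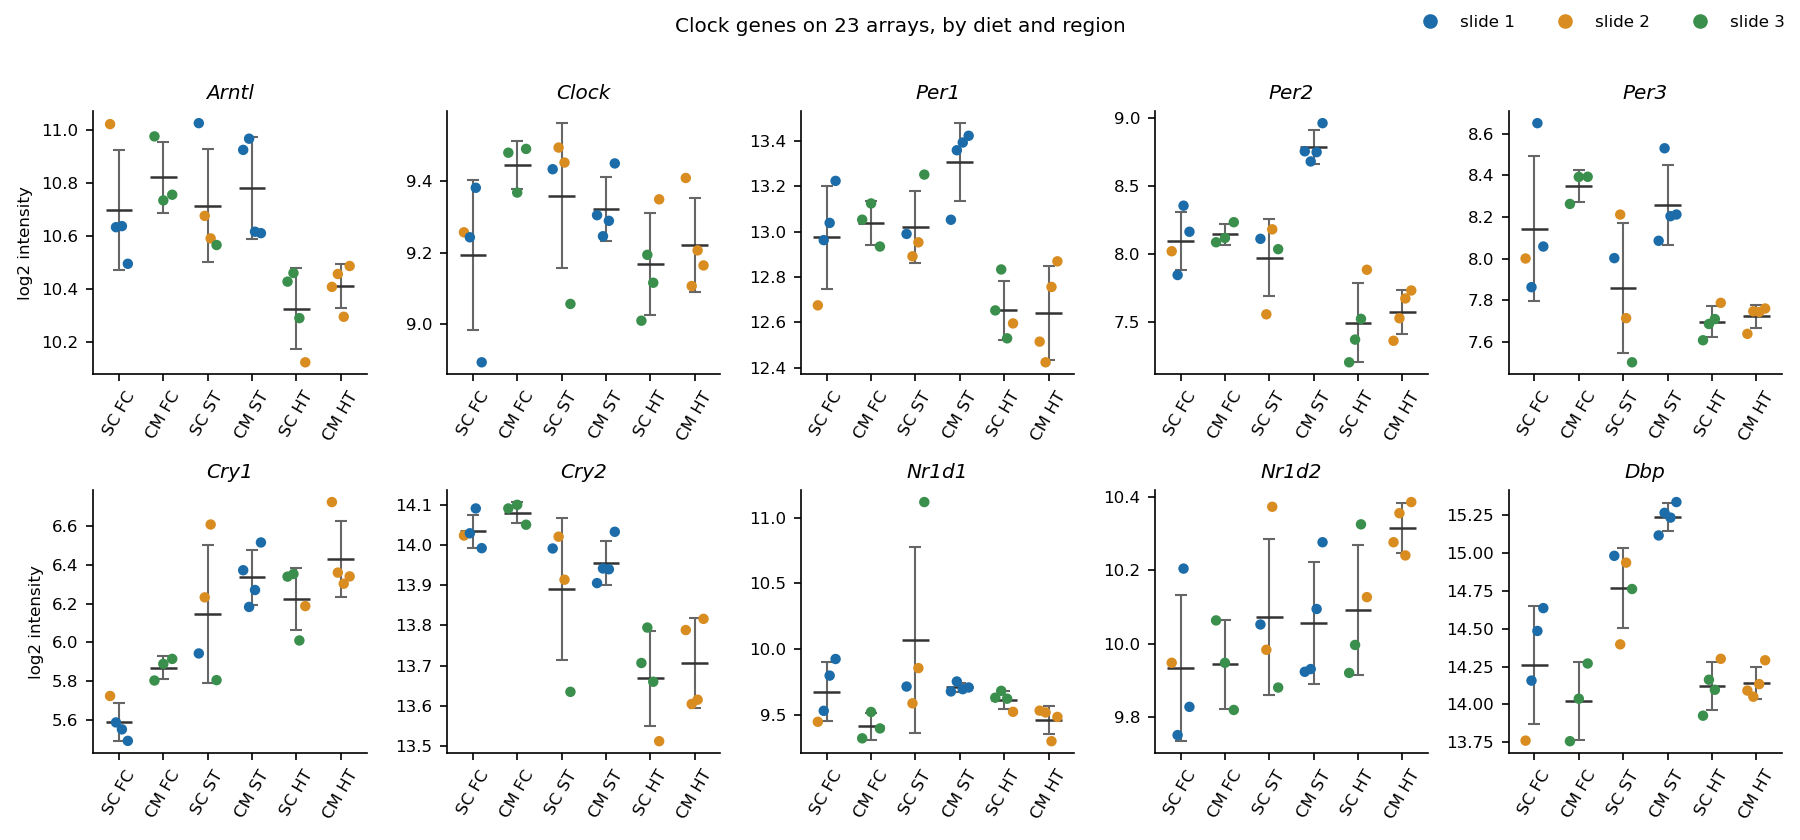
Level of each clock gene (log2 normalized intensity) on every array, by region and diet, with a point per array and the group mean. The CM striatum arrays sit above every SC striatum array for Per2 and Dbp, and 1 SC striatum array (11.12) stands apart for Nr1d1.

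The group means of Clock ran from 9.17 ± 0.14 (SD, n = 4) in SC HT to 9.45 ± 0.07 (SD, n = 3) in CM FC. Arntl was lowest in the HT groups, at 10.325 ± 0.15 (SD, n = 4) in SC mice and 10.41 ± 0.08 (SD, n = 4) in CM mice, and reached 10.82 ± 0.13 (SD, n = 3) in CM FC. Nr1d2 ran from 9.93 ± 0.20 (SD, n = 4) in SC FC to 10.31 ± 0.07 (SD, n = 4) in CM HT. Neighboring group means in these orders differed by less than the larger SD of the pair, except between CM HT and the next higher group for Arntl and between SC HT and CM HT for Nr1d2.

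On chow, 5 of the 10 clock genes differed between HT and FC, against 43.2% of all rows (22.8% higher and 20.4% lower in HT). Per1, Per2, Per3 and Cry2, all repressors in the loop, were lower in HT, and Cry1, also a repressor, was higher. The median difference over the 10 genes was -0.29, and over all rows it was 0.02. HT and FC arrays did not overlap for 4 of the 10 genes, against 32.4% of all rows.

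Per2, a period repressor, read 8.02, 7.85, 8.36 and 8.16 in FC of the SC mice and 7.20, 7.37, 7.52 and 7.88 in HT. Only the highest HT array reached the lowest FC array. The difference was -0.67 (SE 0.15, adjusted p = 0.00159), and HT was lower than FC in 4 of 4 mice. Per3, its paralog, was 8.14 ± 0.35 (SD, n = 4) in FC and 7.70 ± 0.07 (SD, n = 4) in HT, a difference of -0.54 (adjusted p = 0.00652). Its HT arrays lay close together and below all FC arrays. Without FC of mouse L56, the highest Per3 array, it was -0.30 (adjusted p = 0.0788).

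Per1 was 12.97 ± 0.23 (SD, n = 4) in FC and 12.65 ± 0.13 (SD, n = 4) in HT, and the groups overlapped. The difference was -0.40 (adjusted p = 0.0316), and the call was lost in 4 of the 8 fits that left out 1 array of either group, with adjusted p up to 0.112. Cry2, a cryptochrome repressor, read 14.02, 14.03, 14.09 and 13.99 in FC and 13.71, 13.79, 13.66 and 13.51 in HT. All HT arrays were below all FC arrays, with a difference of -0.36 (adjusted p = 0.00177), and the second Cry2 row gave -0.56 (adjusted p = 3.04e-04).

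Cry1 went the other way from Cry2. It read 5.72, 5.59, 5.55 and 5.49 in FC and 6.34, 6.35, 6.01 and 6.19 in HT, with no overlap. The difference was 0.62 (SE 0.14, adjusted p = 0.00178), and HT was higher in 4 of 4 mice. Of the activators, Arntl gave -0.31 (adjusted p = 0.0642) with no overlap between its FC and HT arrays, and neither it nor Clock was called. The second Nr1d2 row was higher in HT by 0.70 (adjusted p = 9.98e-04), while the first was not called.

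With the slide as a fixed block, none of the 10 genes was called between HT and FC on chow, against 14.8% of all rows. The block raised the median SE over all rows from 0.15 to 0.25, and the SE of Cry1 from 0.14 to 0.25. Per2 was then -0.41 (adjusted p = 0.325), Per3 -0.18 (0.762), Per1 -0.35 (0.432), Cry2 -0.26 (0.288) and Cry1 0.62 (0.111). The second rows of Cry2 and Nr1d2 were -0.18 (0.597) and 0.51 (0.193). At an unadjusted p under 0.05 there were 2 members by this fit, against 27% of rows. The only slide that held both groups had 1 array of each, where Per1 differed by -0.08, Per2 by -0.14, Per3 by -0.21, Cry2 by -0.51 and Cry1 by 0.46.

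In ST against FC on chow, 1 of the 10 genes was called, against 14.9% of all rows. It was Cry1, which read 5.94, 6.23, 6.61 and 5.81 in ST, all above the 4 FC values given above. The difference was 0.78 (SE 0.17, adjusted p = 0.00517), a 1.72-fold higher level, and it was positive in 4 of 4 mice, from 0.22 to 1.06. With the slide block it was 0.52 (adjusted p = 0.0526), and within slide 1 and slide 2 it was 0.40 and 0.70. ST and FC arrays did not overlap for 1 of the 10 genes, against 11.4% of all rows. The second Nr1d2 row was higher in ST by 0.55 (adjusted p = 0.0427), while the first was not called (0.21). Blocked by slide, that second row was 0.24 (0.430).

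Dbp read 13.76, 14.16, 14.48 and 14.64 in FC and 14.98, 14.40, 14.94 and 14.76 in ST. The groups overlapped, and the difference of 0.41 was not called (adjusted p = 0.155), but with the slide block it was 0.75 (adjusted p = 0.0106), the one member called of 10, against 10.9% of rows. Of the 10 genes, 3 had an unadjusted p under 0.05, against 29% of rows. Without ST of mouse L54, Per3, Cry1 and Dbp were called, and without FC of mouse L58, Per3 and Cry1 were.

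In HT against ST on chow, 2 of the 10 genes were called, against 21.5% of all rows, and both were lower in HT. Dbp read 13.93, 14.16, 14.10 and 14.30 in HT, below all 4 ST arrays, a difference of -0.67 (SE 0.17, adjusted p = 0.00793) or 1.60-fold. Per2 read 8.11, 7.56, 8.18 and 8.04 in ST, and the array of mouse L54 fell within the HT range. Its difference was -0.51 (SE 0.16, adjusted p = 0.0283). HT and ST arrays did not overlap for 3 of the 10 genes, against 21.7% of all rows. Per2 and Dbp were lower in HT in 4 of 4 mice.

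These calls depended on single arrays. Without ST of mouse L56, Per2 was -0.19 (adjusted p = 0.489) and Dbp -0.39 (0.150), and Cry2 was called. Without ST of mouse L52, Per2 was -0.40 (0.154), Dbp -0.56 (0.0516) and none was called, and without HT of mouse L54, Per2 was -0.46 (0.0784). In the fit of all arrays, the second Cry2 row was lower in HT by -0.41 (adjusted p = 0.0128), while the first was not called (-0.24, 0.0581). With the slide block, Per2 was -0.35 (0.317) and Dbp -0.52 (0.137), and Nr1d1 was the one member called (-0.85, adjusted p = 0.00896), against 15% of rows. The second Cry2 row was then -0.23 (0.391).

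For Nr1d1, 1 ST array stood apart, and its part in the blocked value was not tested. Nr1d1 read 9.71, 9.59, 9.86 and 11.12 in ST of the SC mice and 9.63, 9.68, 9.62 and 9.52 in HT, and mouse L58 gave the high ST value. Without the slide block the difference was -0.28 (adjusted p = 0.242). Within slide 3, where the L58 ST array lay beside 3 HT arrays, it was -1.47, and within slide 2 it was -0.20.

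**Figure D2:**
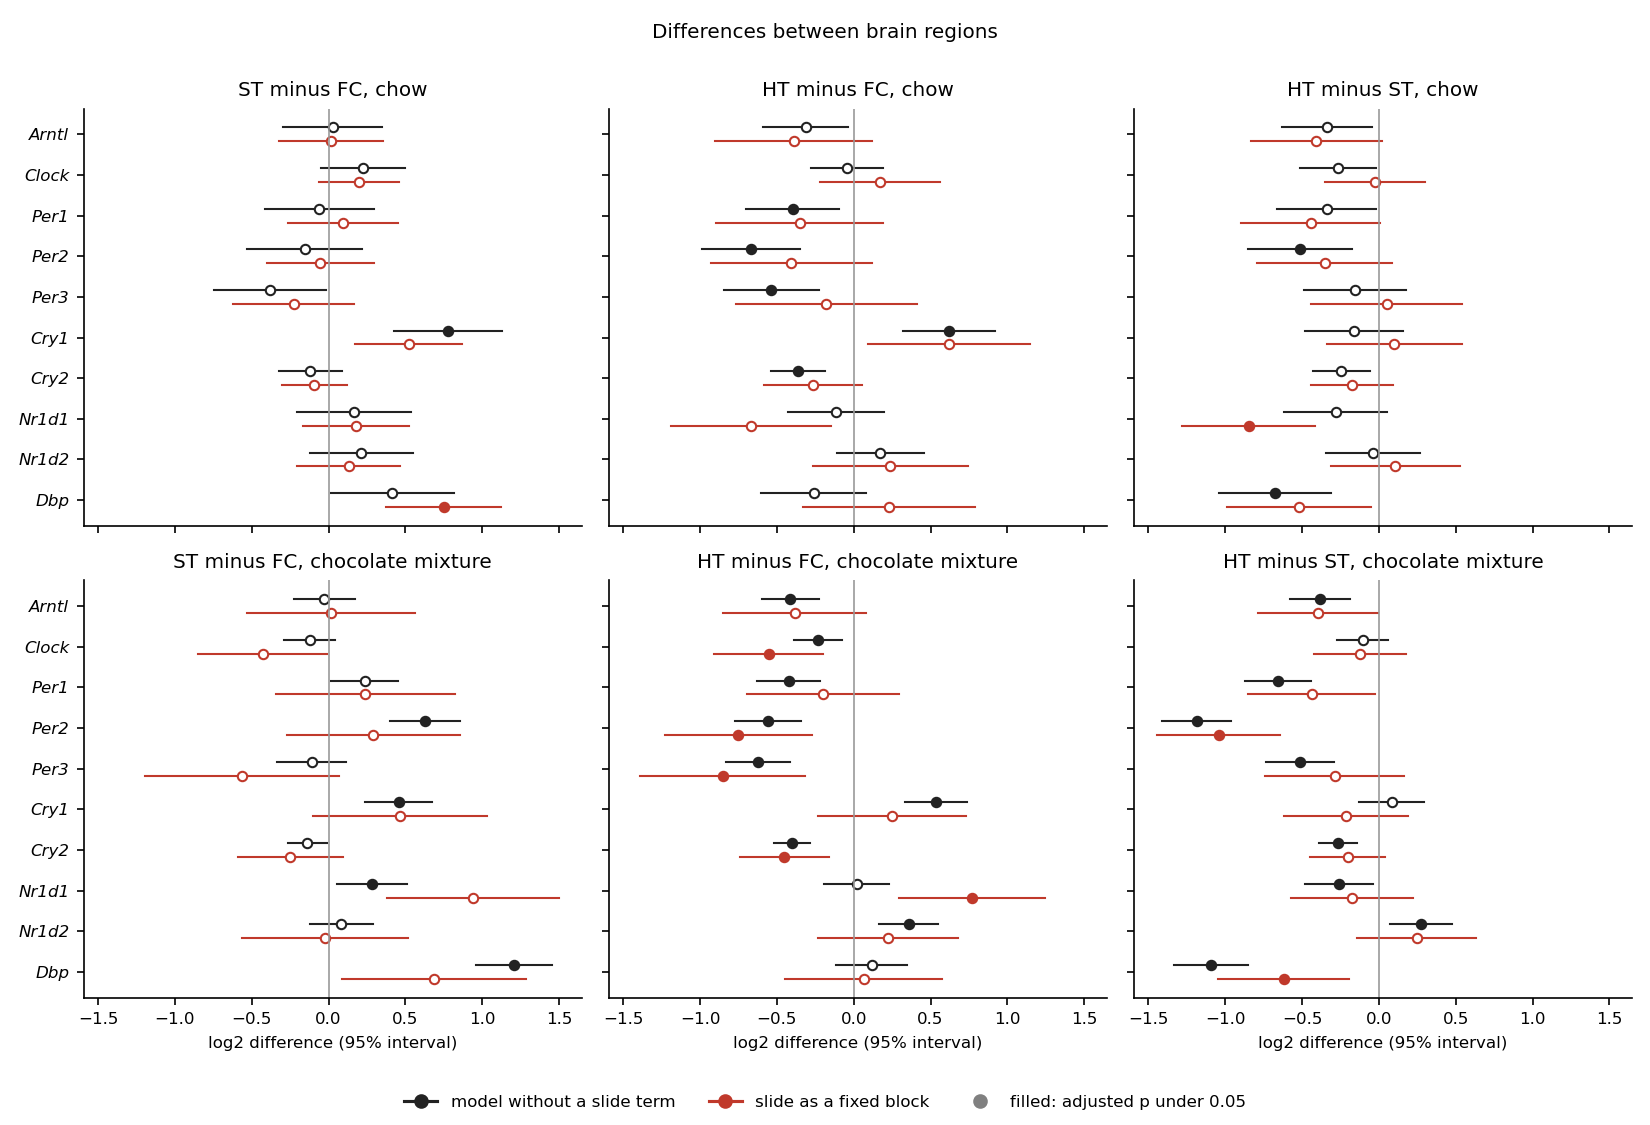
Differences between regions for each clock gene (log2, with 95% intervals) on chow (upper panels) and on chocolate mixture (lower panels), fitted without a slide term (black) and with the slide as a block (red), filled where adjusted p was under 0.05. On chow, Per2 in HT against FC is at -0.67 without the slide term and at -0.41 with it, while in CM mice Per2 in HT against ST is filled in both.

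The study's own stricter thresholds are 2-fold and an adjusted p under 0.01, or 1.5-fold and 0.05 for diet in HT. By these, no clock gene was called on chow, against 2.09% of rows in ST-FC, 8.38% in HT-FC and 4.77% in HT-ST. None was called for diet, against 2.94% of rows in FC, 0.602% in ST and 0.178% in HT, or in the 3 tests of whether that difference varied by region (8.48%, 4.53% and 0% of rows).

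Among CM mice, more genes of all kinds differed between regions, and region and slide cannot be told apart without the SC arrays, since each CM group filled its own slide. Of the 10 clock genes, 4 were called in ST against FC (60.6% of rows), 8 in HT against FC (57.8%) and 8 in HT against ST (56.3%). With the slide block, whose slide terms rest on the SC arrays alone, the counts were 0 (3.17% of rows), 5 (16%) and 2 (19.4%). Groups did not overlap for 5, 7 and 7 of the 10 genes, against 59.3%, 56.4% and 50.3% of all rows.

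Per2 and Dbp in HT against ST were the pair called in both fits. Per2 read 8.76, 8.68, 8.75 and 8.96 in CM ST and 7.36, 7.53, 7.67 and 7.73 in CM HT, with no overlap. The difference was -1.19 (SE 0.10, adjusted p = 1.67e-08) or 2.28-fold, and with the slide block it was -1.04 (adjusted p = 7.18e-04). Dbp read 15.12, 15.26, 15.23 and 15.34 in CM ST and 14.09, 14.05, 14.13 and 14.29 in CM HT, again with no overlap. Its difference was -1.09 (adjusted p = 1.30e-07) or 2.13-fold, and -0.62 (adjusted p = 0.0393) in the blocked fit. Both were lower in HT in 4 of 4 mice. At the study's thresholds the called genes were again Per2 and Dbp in HT against ST (8.74% of rows), with Dbp alone in ST against FC (9.45%) and none in HT against FC (9.35%).

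Against FC, Dbp in CM ST was 1.21 higher (adjusted p = 7.50e-08), with FC arrays at 13.76, 14.04 and 14.27, and Per2, Cry1 and Nr1d1 were higher by 0.63, 0.46 and 0.28. Blocked by slide, Dbp was 0.69 (adjusted p = 0.208), Per2 0.29 (0.650), Cry1 0.46 (0.40) and Nr1d1 0.94 (0.0602). The second rows of Cry2 and Nr1d2 were called in ST against FC at 0.33 and -0.30, where the first gave -0.14 and 0.08. Blocked by slide, these second rows were -0.05 and -0.14 and were not called. In HT against FC, Cry1 and Nr1d2 were higher by 0.54 and 0.36, and Arntl, Clock, Per1, Per2, Per3 and Cry2 were lower, by -0.41, -0.23, -0.42, -0.56, -0.63 and -0.40. With the slide block the called genes were Clock, Per2, Per3 and Cry2, all lower, and Nr1d1, higher by 0.77 (adjusted p = 0.0260). Nr1d1 was 0.02 (adjusted p = 0.876) without the block. The high Nr1d1 array of SC ST (mouse L58) lay on slide 3 with the CM FC arrays, and its part in the blocked value was not tested.

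The diet comparison asks whether clock genes in a region differed between CM and SC mice. In ST, 1 of the 10 genes was called, against 9.82% of rows (3.45% higher in CM). Per2 read 8.11, 7.56, 8.18 and 8.04 on chow and 8.76, 8.68, 8.75 and 8.96 on chocolate mixture, and every CM array was above every SC array. The difference was 0.77 (SE 0.15, adjusted p = 0.00609), a 1.71-fold higher level in CM mice. It ranged from 0.60 to 1.09 when 1 array was left out and was called in 8 of 8 such fits.

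Blocked by slide, Per2 in ST was 0.64 with an adjusted p of 0.924 and an unadjusted p of 0.00227, and 0% of all rows were called by that fit. On slide 1, where all 4 CM ST arrays lay with 1 SC array, the difference was 0.68. Fitted to the ST arrays alone, Per2 was 0.77 with an adjusted p of 0.0673.

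Dbp, the D-box activator, did not pass the test in ST. Every CM array was above every SC array, with a difference of 0.44 (adjusted p = 0.0962). It was 0.07 with the slide block. Per3 gave 0.39 (adjusted p = 0.103) and Per1 0.32 (0.175), and 0.16 and 0.17 when slide was blocked. On slide 1, against its 1 SC array, Dbp, Per3 and Per1 differed by 0.26, 0.26 and 0.32. Without ST of mouse L54 on chow, Per3 was called too, and without that of L56, Dbp was. Groups did not overlap for 2 of the 10 genes, against 7.67% of rows. None of the 5 choroid plexus markers was called in ST, but the log2 of their summed level ranged from 11.8 to 18.3 in CM ST and from 10.9 to 14.2 in SC ST, and their part in the result was not tested.

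In FC, none of the 10 genes was called by limma, against 28.6% of rows, and 4 had an unadjusted p under 0.05, against 40% of rows. These were Clock at 0.24 (adjusted p = 0.0866), Cry1 at 0.30 (0.0857), Nr1d1 at -0.31 (0.0920) and Dbp at -0.36 (0.0772). Blocked by slide, Clock was 0.50, Cry1 0.34 and Nr1d1 -0.95 (adjusted p = 0.390), and Dbp turned to 0.14. No slide held FC arrays of both diets, so the slide 3 term in these values rests on SC arrays of ST and HT. Slide 3 held 1 SC ST array and 3 SC HT arrays. Groups did not overlap for 1 of the 10 genes, against 25.3% of rows. This was Cry1, with 5.80, 5.89 and 5.91 in CM mice above the SC values. Per2 differed by -0.01, with a 95% interval from -0.30 to 0.28, and by 0.29 when slide was blocked. Leaving out 1 array brought up to 2 genes past the threshold: Dbp without L52 on chow or without O58 on chocolate mixture, and Clock and Per3 without L56 on chow.

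The paired rows of Cry2 and Nr1d2 disagreed in FC. The second Cry2 row was lower in CM mice by -0.35 (adjusted p = 0.0111) while the first gave 0.04, and the second Nr1d2 row was higher by 0.53 (adjusted p = 0.00732) while the first gave -0.02. The second Nr1d2 row read 10.94, 10.42, 10.80 and 10.39 on chow and 11.04, 11.21 and 11.18 on chocolate mixture. Blocked by slide, the second rows of Cry2 and Nr1d2 were 0.02 and 0.37, and no row was called in FC.

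In HT, none of the 10 genes was called by limma and none had an unadjusted p under 0.05, against 0.43% and 13.2% of rows. The differences ran from -0.18 for Nr1d1 to 0.22 for Cry1. Both ends turned when slide was blocked, to 0.49 for Nr1d1 (unadjusted p = 0.0385 in limma, with 0% of rows called) and -0.04 for Cry1. The 95% interval was -0.15 to 0.34 for Per2 and -0.24 to 0.28 for Dbp. The second Cry2 row was not called (adjusted p = 0.151) but was -0.26 (unadjusted p = 0.0049 in limma), where the first gave 0.004. Its CM arrays lay below all SC arrays, against 6.77% of rows with no overlap. Blocked by slide, it was -0.37 (unadjusted p = 0.0334).

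**Figure D3:**
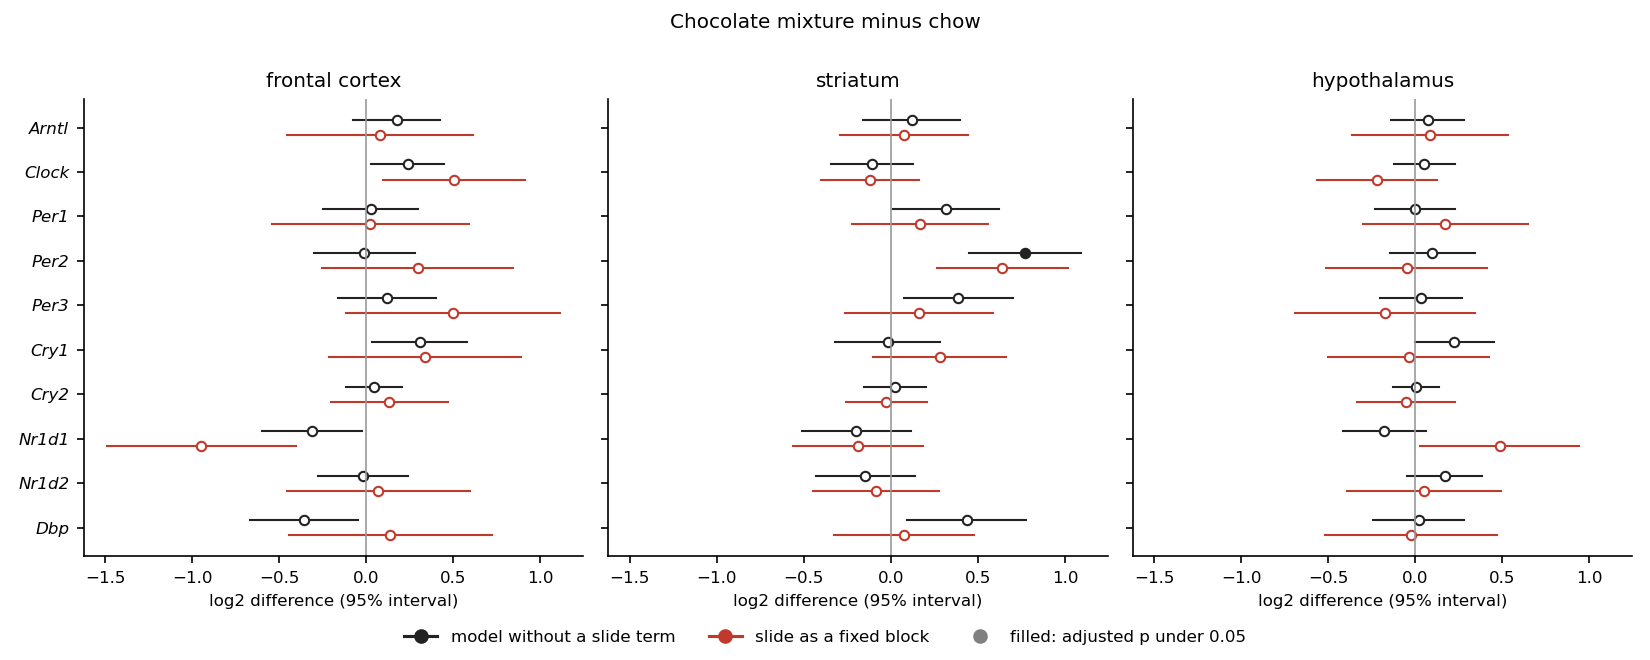
Differences between diets for each clock gene (log2, chocolate mixture minus chow, with 95% intervals) in FC, ST and HT, fitted without a slide term (black) and with the slide as a block (red), filled where adjusted p was under 0.05. Per2 in striatum is the one filled point, at 0.77, and its slide-block value is 0.64.

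Whether the diet difference itself differed between regions was tested as an interaction. Between FC and ST it differed for 2 of the 10 genes, against 30.1% of rows, with a lower value in FC for Per2 (-0.78, SE 0.21, adjusted p = 0.00858) and Dbp (-0.79, SE 0.22, adjusted p = 0.0118). Blocked by slide, Per2 was -0.35 and Dbp was 0.06, of the opposite sign, and 0% of rows were called. The FC part of these blocked values has no slide that held both diets. Striatal markers had the same direction: all 9 had a negative interaction, from -2.41 to -0.92, and all 9 were below 0 in CM against SC FC, from -1.58 to -0.88. Of these, Drd2 was called in both (adjusted p = 0.0236 and 0.0258) and none in CM against SC ST. The log2 of their summed level was 14.7 to 16.8 in SC FC, 14.6 to 16.7 in CM FC, 18.3 to 19.1 in SC ST and 18.8 to 19 in CM ST, and their part in the result was not tested. Between FC and HT no member was called by limma or had an unadjusted p under 0.05, against 20% and 34% of rows. Between ST and HT, no row on the array was called (0%), and Per2 was 0.67 (adjusted p = 0.0974), the 1 member with an unadjusted p under 0.05, against 14.8% of rows. Per2 was called there without ST of L52 or of L56 on chow.

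How the clock genes moved together from mouse to mouse was described by the correlation of the arrays' departures from their group means, over 23 arrays of 8 mice on 3 slides. These points share mice and slides, so no p is given. Per2 and Dbp departed together (r = 0.69, and 0.73 after slide means were taken out), and Per1 and Dbp did too (0.52). Arntl, the activator, departed opposite to Dbp (-0.45). Leaving out 1 mouse at a time, r stayed between 0.62 and 0.75 for Per2 and Dbp, and between -0.58 and -0.32 for Arntl and Dbp.

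Nevertheless, many rows departed like Dbp. Per2 ranked 275th of 31394 other rows by likeness to Dbp, Per1 1653rd and Arntl 28223rd. The most similar rows to Dbp were Isl1 (0.92), Sytl5 (0.90) and E130306D19Rik (0.89), and those to Arntl were Atrn (0.86), an unnamed row and Ptpn2 (both 0.84). For Nr1d1, the likeness to Clock of -0.63 rested on mouse L58, and without it r was 0.14.

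By mouse, Arntl was above its group mean in 3 of 3 regions of L52 (mean departure 0.25) and below it in 3 of 3 of L58 (-0.18). Per2 was below in 3 of 3 of L54 (-0.26), and above in 3 of 3 of L56, L58 and O58. Nr1d2 was above in 3 of 3 of L56 (0.27). These are examples, and Arntl was also above in 3 of 3 of O54 and below in 3 of 3 of L56 and O56. How many such runs chance gives was not tested. Over all rows the correlation within mice was -0.04.

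**Figure D4:**
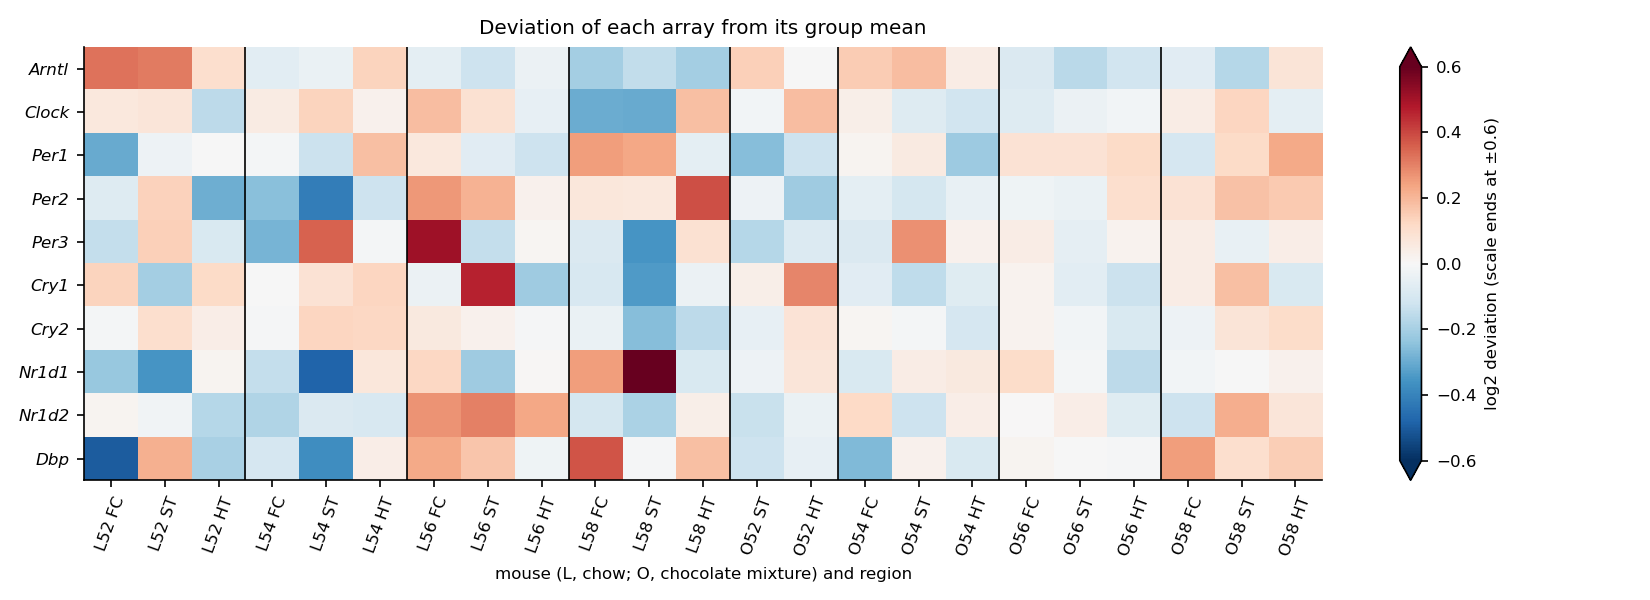
Departure of each array from its group mean (log2) for each clock gene, arrays ordered by mouse and region. The Nr1d1 value of striatum in mouse L58 (1.05) is the largest, and the L52 arrays are above the mean for Arntl in all regions.

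Other parts of the clock were taken from a list of 22 genes, all measured. On chow, 6 were called in ST against FC (2 higher, 4 lower), 11 in HT against FC (4 higher, 7 lower) and 6 in HT against ST (3 higher, 3 lower), against 14.9%, 43.2% and 21.5% of all rows. Blocked by slide there were 5, 6 and 4, against 10.9%, 14.8% and 15%. In CM mice the counts were 14 (8 higher, 6 lower), 14 (6 higher, 8 lower) and 13 (6 higher, 7 lower), against 60.6%, 57.8% and 56.3% of rows, and 0, 5 and 5 when slide was blocked (3.17%, 16% and 19.4%). Npas2, the Clock paralog, was lower in HT than in FC by -1.49 (adjusted p = 5.79e-06) and than in ST by -1.39 (4.45e-05), and remained called with the slide block. Fbxl21, a ligase part that acts on Cry proteins, was higher in HT than FC by 1.11 (1.43e-05), and Usp2, a deubiquitinase, was lower by -1.06 (1.75e-04).

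Rora, a receptor that activates Arntl at the sequences bound by Nr1d1, was higher in HT than in ST by 1.42 (adjusted p = 0.00106), while Arntl itself was not called. In ST against FC, Arntl2 (-0.87), Bhlhe40 (-0.75) and Fbxl21 (0.76) were called in both fits. By diet, 3 of the 22 genes were called in FC (28.6% of rows), all lower in CM mice, among them Bhlhe41 (-0.59, adjusted p = 0.00367) and Csnk1d (-0.31). In ST, 3 were called (9.82% of rows), among them Csnk1e (-0.32), which was lower, and Arntl2 (0.41), which was higher. The diet difference varied between FC and ST for 6 of the 22 genes (30.1% of rows), between FC and HT for 2 (20%), and between ST and HT for none by limma, with 3 at an unadjusted p under 0.05 (14.8%). For diet in HT, none was called by limma (0.43% of rows), and 3 of 22 had an unadjusted p under 0.05, against 13.2% of rows. None of the diet calls was made with the slide block.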

How the data were processed

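The data were 23 one-color arrays scanned with Feature Extraction 10.7.3.1. The authors deposited spot intensities on a linear scale and log2 values, which they made by background correction, quantile normalization, filtering of dim probes and averaging by transcript. Rebuilding these values from the median spot intensities with limma 3.58.1 (normexp, offset 0, quantile normalization, probes above 1.1 times the 95th percentile of negative controls on at least 4 arrays) gave values within 5e-09 of the deposited ones, which had 31395 rows. No authors' fold changes or p-values were used.

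All 23 arrays were fitted in R 4.3.3 with limma (with statmod 1.5.0) as 6 group means, with gene-by-gene array weights, the mouse as a random block (correlation -0.0398), moderated by empirical Bayes, with p adjusted by Benjamini-Hochberg. The array weight estimator had been chosen by an earlier session after values were seen. Weights ran from 0.222 (SC ST of mouse L58) to 2.74 (CM FC of mouse O56). Samples were grouped by region and diet from the labels. Each gene was represented by its RefSeq NM row, the one with the highest mean where there were several. The second Cry2 and Nr1d2 rows were reported where their call differed from that of the first row without a slide term. The dim second Per1 row was largely left out. Named companion genes were at most the 4 called with the smallest adjusted p in a comparison, and some of these are not reported here. The members and lists were chosen with earlier results of these data known. The model was run on simulated data with independent noise and no slide or mouse effect, so that run does not bear on the overlap of diet and slide. Alternatives covered the slide, mouse block, array weights, arrays fitted, background offset, scaling, filter, thresholds and each array left out. SC and CM mice of the same number were different animals, whose departures correlated between -0.32 and 0.14, so the numbers do not pair them.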

Additional observations from a re-analysis of the deposited data

Results flagged for a closer look

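Clock in SC ST of mouse L58 read 9.06 where the nearest of its group was 9.43, Per1 by its dim second row in CM HT of mouse O54 read 4.63 (nearest 5.01), Per3 in CM HT of mouse O52 read 7.64 (nearest 7.74), Cry1 in CM HT of mouse O52 read 6.72 (nearest 6.36), and the second Cry2 row in SC ST of mouse L58 read 10.63 (nearest 11.04). These arrays lay far from the rest of their group by Dixon's ratio, in 5 of 65 groups tested, and chance gives about 1 in 20.

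The diet difference differed between FC and ST by the interaction test for Per2 (-0.78), Dbp (-0.79), the second Cry2 row (-0.49, adjusted p = 0.0164) and the second Nr1d2 row (0.85, adjusted p = 0.00467), each FC minus ST. With the slide as a fixed block none of them was called.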

How the results depend on the processing

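Counts are of the 10 genes called. With the slide as a fixed block they went from 5 to 0 for HT against FC and from 2 to 1 for HT against ST on chow, from 1 to 0 for diet in ST, from 2 to 0 for the diet difference between FC and ST, and from 4, 8 and 8 to 0, 5 and 2 for ST-FC, HT-FC and HT-ST in CM mice. With the slide as a random block they were 3, 1, 0 and 0 for the first 4 of these. The Dbp diet difference between FC and ST turned from -0.79 to 0.063 with the fixed block, and the Nr1d1-Clock correlation from -0.63 to 0.14 without mouse L58 and ranged from -0.71 to 0.14 over the mice left out. Of all rows, called diet differences fell to 0 with the fixed block. The median SE of the diet difference over all rows then rose from 0.13 to 0.26 in FC, 0.15 to 0.18 in ST and 0.11 to 0.22 in HT.

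A fixed replicate block on the mouse number, in place of the random mouse block, joined SC and CM mice that were different animals. With it, counts were 2 for ST against FC on chow, 1 for diet in FC (Dbp) and 2 for diet in ST (Per2 and Dbp). Without array weights they were 2 for ST-FC and 4 for HT-ST on chow. Fitting only the arrays compared gave 1 for HT-ST on chow, 1 for diet in FC (Cry1) and 0 in ST. Scaling to the 75th percentile gave 1 for HT-ST on chow and 2 for diet in FC. At the study's thresholds the counts were 0 for every comparison but ST-FC (1) and HT-ST (2) in CM mice.

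Leaving out 1 array, counts ranged from 1 to 3 for ST-FC, 4 to 6 for HT-FC and 0 to 3 for HT-ST on chow, 0 to 2, 1 to 2 and 0 to 0 for diet in FC, ST and HT, 2 to 3, 0 to 0 and 0 to 1 for the diet difference FC-ST, FC-HT and ST-HT, and 3 to 5, 7 to 8 and 6 to 8 in CM mice. Over all alternatives and arrays left out, 219 of 259 counts were equal to the count reported or within 1.5 times it. A reported count of 0 was matched only by 0. Many of these fits left out 1 array from the model without a slide term, so they do not bear on the slide.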
